A study of Mus musculus with 6 samples.

Results

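The TNF superfamily, the TRAF adaptors and the NF-κB subunits were followed in cancer-associated fibroblasts (CAFs) sorted from mouse colonic adenomas. The members were the protein-coding genes of the deposited table whose symbol is Tnf, Rel, Rela or Relb, or is made of Tnfsf, Tnfrsf, Traf or Nfkb and a number. This gave 44 of 49548 genes, namely 12 ligands, 20 receptors, 7 TRAF genes and 5 NF-κB subunits. Family genes with other symbols, such as Lta, Fas or Cd40, were placed in a separate list. Membership followed the symbol and no measured value, although the family and the gene lists were chosen with earlier results of these data known.

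All libraries came from Col6a1-cre, Rosa26-mTmG mice of the C57/BL6 strain that had undergone the AOM/DSS protocol, in which the carcinogen azoxymethane is combined with the colitis-inducing agent dextran sulfate sodium. Adult mice of both sexes were used, and each sample was a pool of tumors from several animals, so that single animals were not measured. In the mTmG strain, Cre replaces membrane Tomato with GFP, and Col6a1-cre acts mainly in PDGFRα-high fibroblasts and pericytes of the intestine. After cells with CD45, EpCAM, CD31 or Ter119 had been excluded, 3 libraries were made from GFP+ cells, here Col6a1+ CAFs, and 3 from Tomato+ cells, here Col6a1− CAFs. The controls therefore carried the same alleles and treatment, and the comparison asks how the 2 sorted populations of 1 tumor type differ. QuantSeq libraries read the 3′ end of each polyadenylated transcript, and the deposited values are normalized counts on a log2 scale.

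TNF family ligands bind receptors of the TNF receptor family on the cell surface. Some receptors carry a death domain, others bind TRAF proteins directly, and a few are decoys that hold ligand without a signal. TRAF proteins and kinases downstream release NF-κB dimers from inhibitory IκB proteins, and the dimers then switch on cytokine, chemokine and protease genes. Tumor fibroblasts are known to respond to TNF and IL-1 through this route.

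Summed normalized counts lay between 3039152 and 3425249 per library, and these sums carry the authors' scaling. Col6a1+ replicate 1 stood apart with 14530 detected genes against 18770 to 20511 in the other libraries, and it held 26 of the 44 members against 33 to 41. The 8 pericyte markers summed to between 42545 and 91813 normalized counts in Col6a1+ CAFs and between 1173 and 2206 in Col6a1− CAFs, and all 8 passed the test as higher. The 8 fibroblast markers summed to between 37603 and 41395 against 6980 to 14172, with 4 passing as higher (Col1a1, Col1a2, Col3a1 and Pdgfra). Lum and Dpt overlapped between the groups. Mfap5 went the other way without passing, with 3, 29 and 21 normalized counts against 90, 95 and 35 (log2 fold change -2.30). Markers of excluded cells were also present. The 13 epithelial markers, none of them at 0, summed to between 6014 and 6919 in Col6a1+ CAFs and between 20793 and 36456 in Col6a1− CAFs, with 9 passing as lower. The 16 immune markers summed to between 83 and 126 against 529 to 983, with S100a8 and S100a9 passing as lower, and Cd3g and Ms4a1 at 0 in every library. In the Col6a1− libraries most of this sum came from S100a8 (211, 387 and 167) and S100a9 (229, 391 and 162). The 10 endothelial markers summed to between 1187 and 1568 against 263 to 594, a difference that lay in Esam (943 to 1125 against 38 to 93) and Tie1 (56 to 220 against 1 to 21). The other 8 endothelial markers, Pecam1 and Cdh5 among them, had log2 fold changes below 0, none of them passing, and the median of the list was -1.13. The 6 erythroid markers summed to between 110 and 1713 against 281 to 482, and the 5 glial markers to between 55 and 73 against 29 to 76. In bulk libraries, fewer cells of a type and less RNA per cell cannot be told apart.

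**Figure D1:**
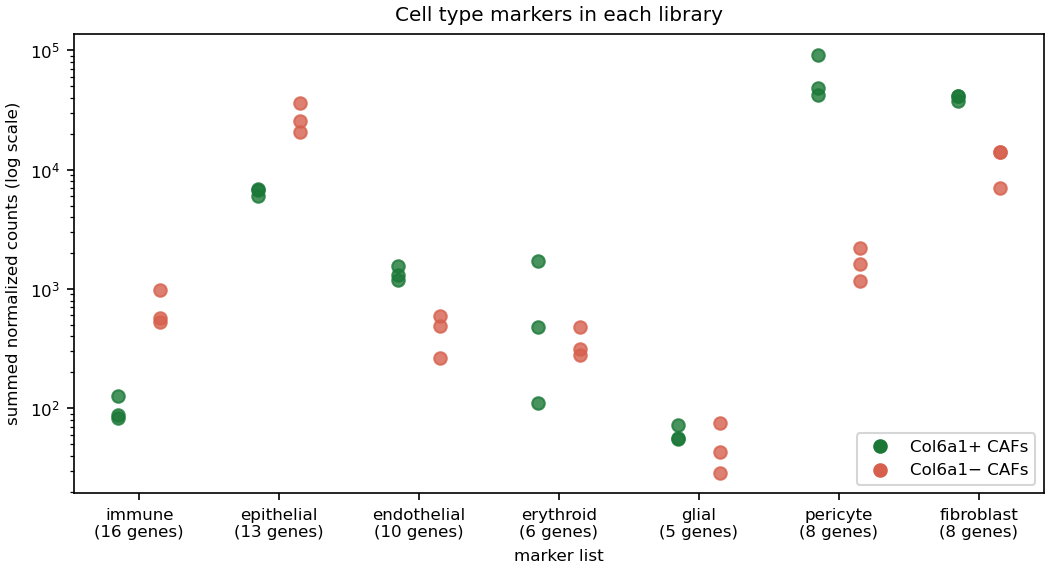
Summed normalized counts of 7 marker lists (log axis) in each library, with 1 point per library for Col6a1+ CAFs (green) and Col6a1− CAFs (red). Epithelial and immune sums were higher in every Col6a1− library, with no overlap, and pericyte, fibroblast and endothelial sums in every Col6a1+ library. The endothelial difference lies in Esam and Tie1, and the other 8 endothelial markers had fold changes below 0. Of the fibroblast markers, Mfap5 had a fold change below 0.

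Across the family, 3 members rose and 1 fell in Col6a1+ CAFs. The receptor genes Tnfrsf1a and Tnfrsf21 and the adaptor gene Traf5 were higher, and the decoy receptor gene Tnfrsf11b was lower. The pericyte, fibroblast, epithelial and immune marker sums also differed between the groups. Their part in the values of these and the other members was not tested. Of the 44 members, 43 were tested because their normalized counts summed to at least 1, 30 had a mean of at least 10, and Tnfrsf17 was at 0 in every library. The 3 higher members made up 6.98% of those tested, against 2.66% of all genes, and the 1 lower member made up 2.33%, against 1.96% of all genes. The lower share was thus close to that of the table. The test was limma on log2(normalized count + 1), with p-values adjusted over all 26402 genes tested, and a member was called at an adjusted p under 0.05.

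At a looser criterion, an unadjusted p under 0.05 and a log2 fold change beyond 1 in either direction, 6 members were higher (14.0%, against 6.09% of all genes) and 9 were lower (20.9%, against 8.61%). In 6 members the Col6a1+ libraries were all above the Col6a1− libraries (7.91% of all genes did so), and in 11 members they were all below (25.6%, against 11.6% of all genes). The median log2 fold change of the tested members was -0.60, or -0.53 with members at 0 in a group set to their bound, whereas that of all genes was -0.27. By role, the fold change was below 0 for 8 of 12 ligands, 16 of 19 receptors and 5 of 7 TRAF genes, and above 0 for 4 of 5 NF-κB subunits. Among the 30 members with a mean of at least 10 the median was -0.34, against -0.15 for all such genes.

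When replicate numbers entered the fit as a block, the table held no called gene, member or not (smallest limma adjusted p = 0.0612), although 4418 genes had an unadjusted p under 0.05. Among the 13515 genes averaging at least 10 normalized counts, the blocked fit called 4 of the 30 members as higher (13.3%, against 7.26% of these genes) and 2 as lower (6.67%, against 6.44%). The 4 were Tnfrsf1a, Tnfrsf21, Traf5 and Tnfsf12, and the 2 were Tnfrsf11b and Tnfrsf12a. Without Col6a1+ replicate 1, 2 members were higher and none was lower at an adjusted p under 0.05, while 5 and 8 passed the looser criterion. Without Col6a1+ replicate 2, 1 member was higher, and without any of the other 4 libraries 0 were, with none lower in these fits.

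**Figure D2:**
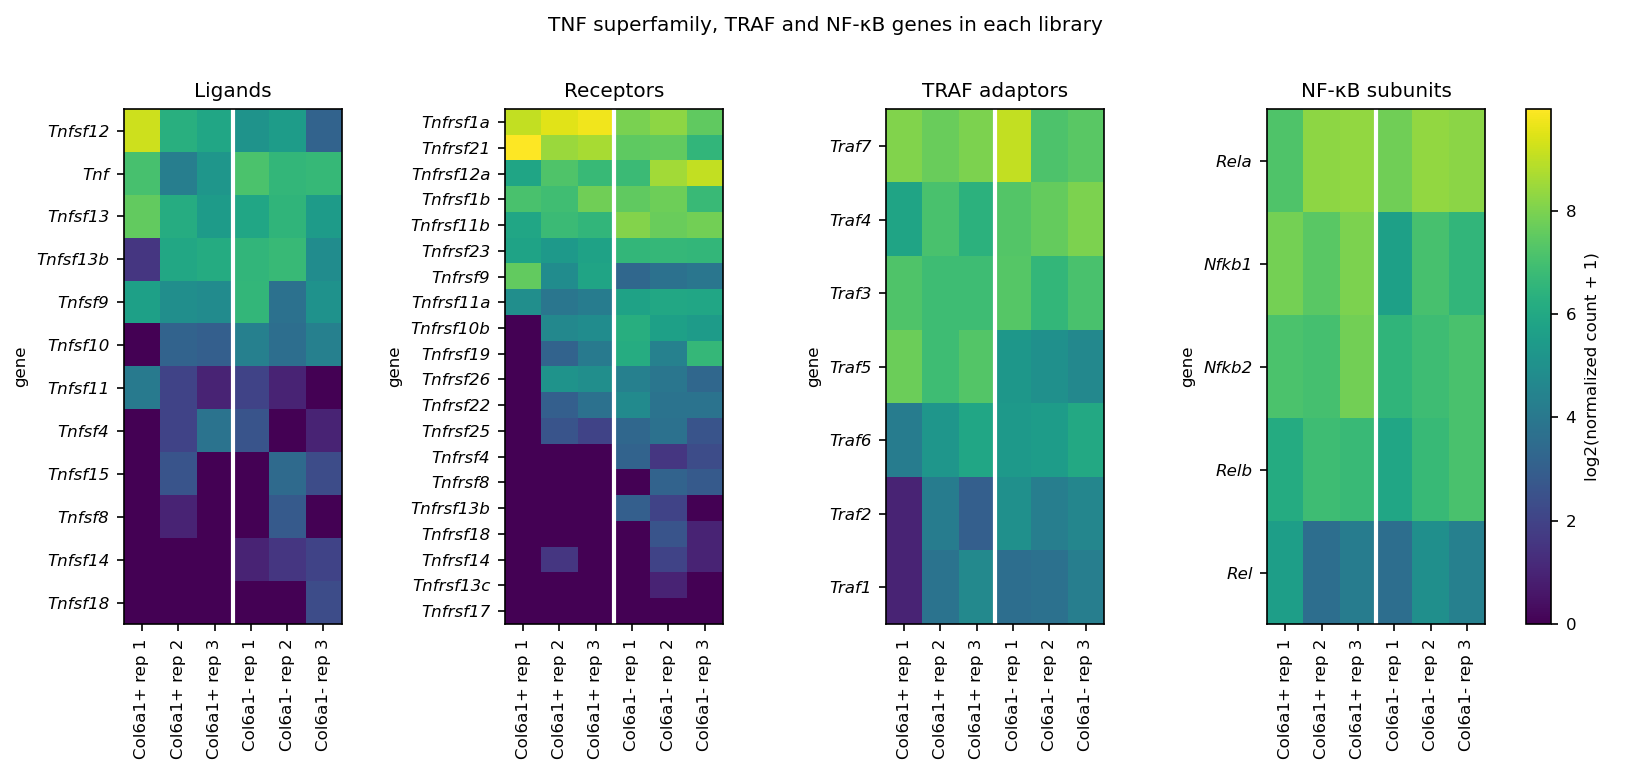
Log2(normalized count + 1) of the 44 members in each library, in panels for ligands, receptors, TRAF adaptors and NF-κB subunits, ordered by mean level. Dark cells are at 0, and Col6a1+ replicate 1 has the most of them, with 26 members detected.

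Tnfrsf1a encodes TNFR1, the death domain receptor for TNF that most cell types carry (ENSMUSG00000030341, chr6:125349362-125362484 on the plus strand of mm10). It had 532, 739 and 848 normalized counts in the Col6a1+ libraries and 245, 306 and 186 in the Col6a1− libraries. All Col6a1+ libraries were above all Col6a1− libraries. The mean was 706 ± 161 against 246 ± 60.0 (SD, n = 3 each), and the log2 fold change was 1.52 (SE, the standard error, of 0.32, limma adjusted p = 0.0230). Its adjusted p was 0.108 with the replicate block over all genes and 0.0136 with the block over genes with a mean of at least 10. In the fits without 1 of the libraries, its log2 fold change stayed between 1.34 and 1.71, and the call held without Col6a1+ replicate 1 (limma adjusted p = 0.0371) and in none of the other 5 such fits.

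The other TNF receptor gene, Tnfrsf1b, encodes TNFR2, which has no death domain and binds TRAF proteins. It had 136, 118 and 220 normalized counts in Col6a1+ CAFs and 184, 214 and 107 in Col6a1− CAFs, which overlapped. Its log2 fold change was -0.08, with a 95% interval from -0.96 to 0.80. Within each library, the ratio of Tnfrsf1a to Tnfrsf1b counts was 3.91, 6.26 and 3.85 in Col6a1+ CAFs and 1.33, 1.43 and 1.74 in Col6a1− CAFs, and the groups did not overlap.

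Tnf itself, the ligand of both (chr17:35199381-35202007), had 133, 18 and 37 normalized counts in Col6a1+ CAFs and 141, 95 and 102 in Col6a1− CAFs. Col6a1+ replicate 1 was as high as the Col6a1− libraries, and the other Col6a1+ libraries were below all of them. The log2 fold change of -1.29 (SE 0.65) did not pass (limma adjusted p = 0.370), and it was -2.06 without Col6a1+ replicate 1 (limma adjusted p = 0.0570). Tnf is a product of myeloid cells, and the immune marker sum moved the same way across the groups. The part of such cells in the Tnf values was not tested.

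Tnfrsf21 encodes death receptor 6, a member of the family with a death domain (ENSMUSG00000023915, chr17:43016555-43089188, plus strand). Its normalized counts were 995, 356 and 401 in Col6a1+ CAFs and 179, 189 and 93 in Col6a1− CAFs. The groups did not overlap, and Col6a1+ replicate 1 was the highest library. The log2 fold change was 1.82 (SE 0.45, limma adjusted p = 0.0463), and 1.36 without Col6a1+ replicate 1 (limma adjusted p = 0.108). The call did not hold in any fit without 1 library, with a pseudocount of 0.1 (limma adjusted p = 0.0704) or with the block over all genes (limma adjusted p = 0.117), but it did with the block over genes with a mean of at least 10 (limma adjusted p = 0.0136).

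**Figure D3:**
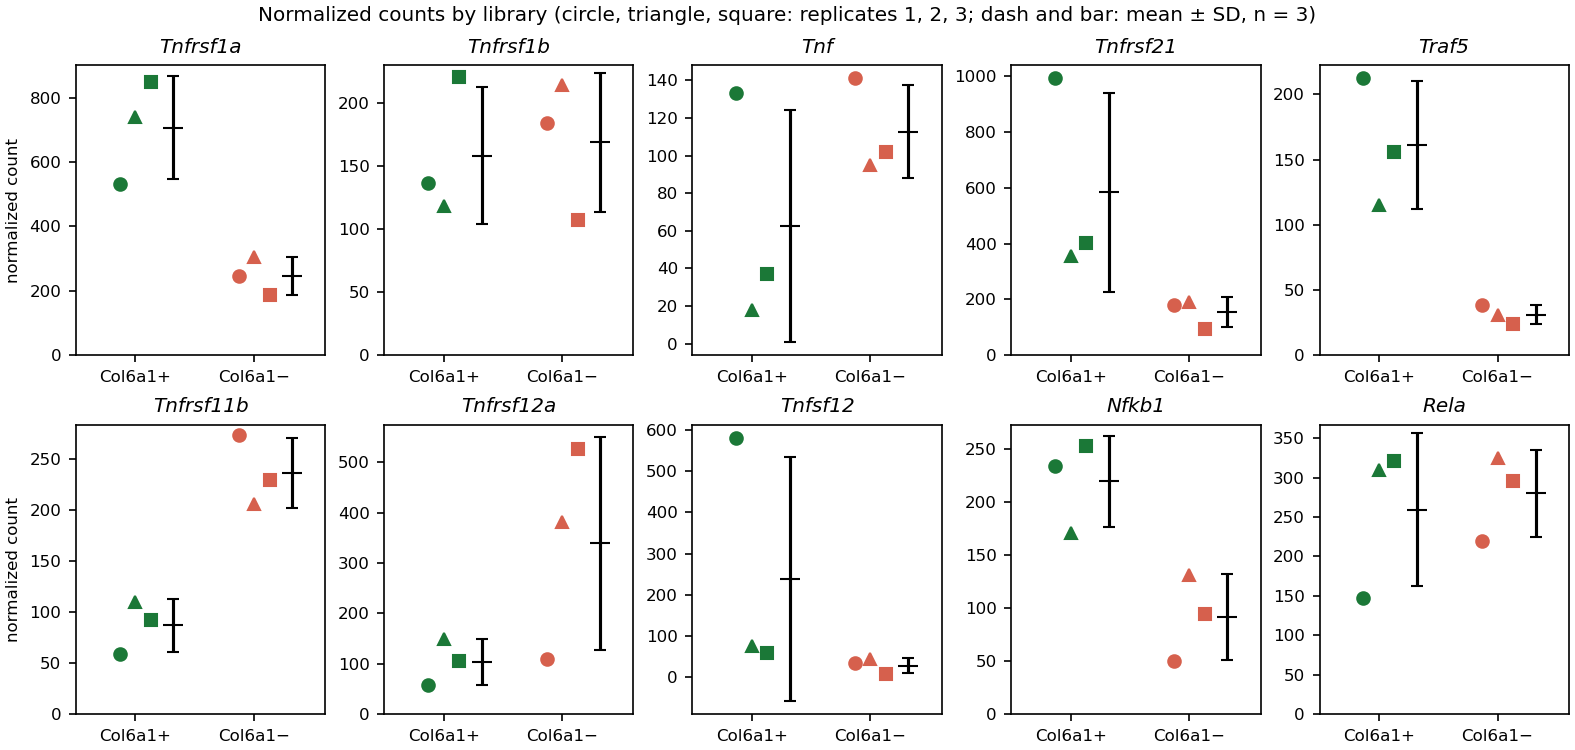
Normalized counts of 10 members by library, with symbols for replicates 1 to 3 and the mean ± SD (n = 3) beside them, each panel on its own axis. Tnfrsf1a, Tnfrsf21, Traf5 and Nfkb1 are higher in every Col6a1+ library than in any Col6a1− library, Tnfrsf11b is lower in each, and Tnfrsf1b and Rela overlap.

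The receptor system of RANK ligand was the place of the 1 lower call. Tnfrsf11b encodes osteoprotegerin, a secreted decoy for RANK ligand and TRAIL (ENSMUSG00000063727, chr15:54250619-54278484, minus strand). It had 59, 110 and 92 normalized counts in Col6a1+ CAFs and 273, 206 and 229 in Col6a1− CAFs, with no overlap. The log2 fold change was -1.47 (SE 0.36, limma adjusted p = 0.0481). Its adjusted p was 0.146 with the block over all genes, 0.0323 with the block over genes with a mean of at least 10 and 0.0654 with a pseudocount of 0.1, and the call held in no fit without 1 library, with log2 fold changes there of -1.66 to -1.21.

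Tnfrsf11a, the signalling receptor RANK, had 29, 14 and 17 normalized counts against 52, 61 and 58. These did not overlap either, but the log2 fold change of -1.53 passed the looser criterion (limma adjusted p = 0.166). Its adjusted p was 0.0391 over the genes with a minimum of 10 normalized counts in each library. Tnfsf11, which encodes RANK ligand, lay between 1 and 16 normalized counts in Col6a1+ CAFs and between 0 and 3 in Col6a1− CAFs. The ratio of Tnfrsf11b to Tnfrsf11a counts was 2.03, 7.86 and 5.41 in Col6a1+ CAFs and 5.25, 3.38 and 3.95 in Col6a1− CAFs. These ratios overlapped between the groups.

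The genes of TWEAK and its receptor Fn14 had fold changes of opposite sign, without passing an adjusted p of 0.05. Tnfsf12 (TWEAK, chr11:69686250-69695849, minus strand) had 581, 77 and 59 normalized counts in Col6a1+ CAFs and 34, 44 and 8 in Col6a1− CAFs. All Col6a1+ libraries were above all Col6a1− libraries, and replicate 1 was far above the rest. The log2 fold change was 2.53 (SE 0.88, limma adjusted p = 0.160) and 1.50 without Col6a1+ replicate 1. Tnfrsf12a (Fn14, chr17:23675447-23677449) had 57, 149 and 105 against 110, 381 and 526, with a log2 fold change of -1.53 (SE 0.58, limma adjusted p = 0.198). Its groups overlapped, since Col6a1− replicate 1 lay below Col6a1+ replicate 2. Both genes passed with the block over genes with a mean of at least 10 (limma adjusted p = 0.0366 and 0.0270). The ratio of Tnfsf12 to Tnfrsf12a counts was 10.2, 0.517 and 0.562 in Col6a1+ CAFs and 0.309, 0.115 and 0.0152 in Col6a1− CAFs.

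Tnfsf12 lies in a cluster where genes overlap. The counts of Tnfsf13, which encodes APRIL, were the same in all 6 libraries as those of the overlapping readthrough gene Tnfsfm13, namely 188, 70 and 43 against 58, 90 and 43. The antisense gene Tnfsf13os had 2 to 33 normalized counts. Whether the counting used strand is not stated, so reads of these genes cannot be told apart with certainty.

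Tnfrsf9 encodes CD137, a costimulatory receptor best known on T cells (chr4:150914562-150946102, plus strand). It had 190, 28 and 55 normalized counts in Col6a1+ CAFs and 9, 12 and 14 in Col6a1− CAFs. The groups did not overlap. The log2 fold change of 2.44 (SE 0.74) passed the looser criterion only (limma adjusted p = 0.101), and it was 1.69 without Col6a1+ replicate 1. It overlaps Camta1 on the other strand, which had 74 to 121 normalized counts. The immune marker sum, mostly S100a8 and S100a9 in Col6a1− CAFs, moved the other way. The T cell markers Cd3e and Cd3g had 0 to 3 normalized counts in every library. The part of immune cells in the Tnfrsf9 values was not tested. Tnfsf9, the ligand gene of CD137, had 49, 29 and 27 against 96, 12 and 33, with a log2 fold change of -0.01.

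Further receptor genes were lower in Col6a1+ CAFs at the looser criterion. Tnfrsf19, also called Troy, had 0, 8 and 16 normalized counts against 71, 20 and 99 (log2 fold change -3.32, or -2.11 without Col6a1+ replicate 1). Tnfrsf10b, a death receptor for TRAIL, had 0, 24 and 28 against 75, 50 and 43 (log2 fold change -2.63, or -1.04 without Col6a1+ replicate 1). Neither gene's groups overlapped, and in both the value of 0 came from the library with the fewest detected genes. The limma adjusted p was 0.142 for Tnfrsf19 and 0.300 for Tnfrsf10b. The TRAIL gene Tnfsf10 had 0 to 8 against 11 to 19 normalized counts (log2 fold change -2.02, limma adjusted p = 0.413). The epithelial and immune marker sums were lower in the same libraries, and their part in the lower receptor values was not tested.

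Tnfrsf22, Tnfrsf23 and Tnfrsf26 are neighbouring, similar genes, of which the first pair encode decoy receptors for TRAIL in mice, and reads may be shared among them. Tnfrsf23 had 54, 41 and 52 normalized counts against 95, 98 and 96, with a log2 fold change of -0.97 (limma adjusted p = 0.242) and no overlap. Tnfrsf22 had 0 to 12 against 13 to 26 normalized counts, and Tnfrsf26 had 0 to 34 against 9 to 19.

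Receptors and ligands of lymphocytes were near the limit of detection. Tnfrsf4 (OX40) was at 0 in the 3 Col6a1+ libraries and had 8, 2 and 4 normalized counts in the Col6a1− libraries. Against a floor of 3 normalized counts per library, the Col6a1+ level was at least 1.56-fold lower. Tnfrsf8 (CD30) was at 0 in Col6a1+ CAFs and had 0, 8 and 6 in Col6a1− CAFs, and Tnfsf14 (LIGHT) was at 0 against 1, 2 and 3. These passed the looser criterion, with limma adjusted p-values of 0.109, 0.292 and 0.186, and Tnfrsf4 also passed with limma-voom (adjusted p = 0.0416). The remaining low members, Tnfrsf13b, Tnfrsf13c, Tnfrsf14, Tnfrsf18, Tnfrsf25, Tnfsf15, Tnfsf18, Tnfsf4 and Tnfsf8, ranged from 0 to 13 normalized counts in all libraries. The lymphocyte markers Cd3e, Cd3g, Cd79a and Ms4a1 had 0 to 3 normalized counts in every library. A value of 0 allows up to 3 counts, and this limit covers counting error only.

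Tnfsf13b encodes the B cell survival factor BAFF. It had 2, 62 and 69 normalized counts in Col6a1+ CAFs and 92, 105 and 28 in Col6a1− CAFs. Its log2 fold change of -1.48 rested on Col6a1+ replicate 1 and was 0.012 without it.

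**Figure D4:**
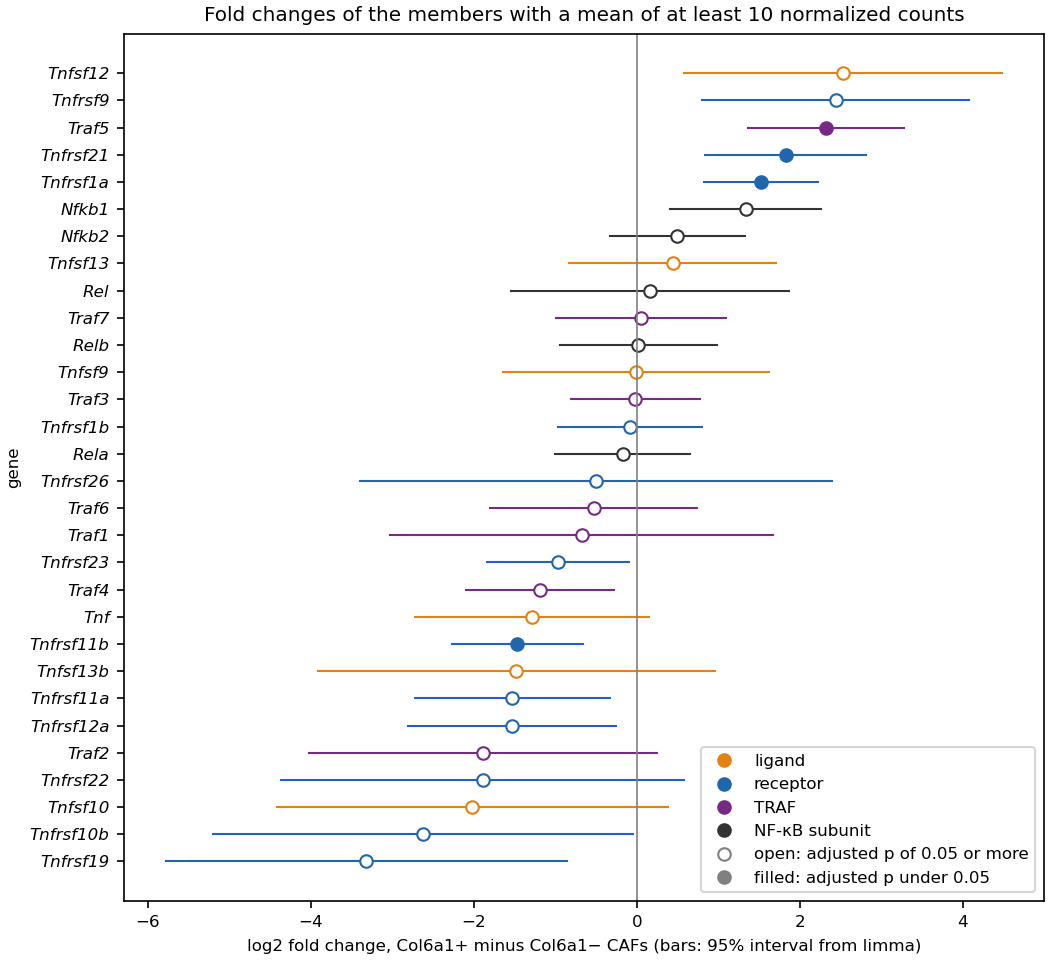
Log2 fold change (Col6a1+ minus Col6a1− CAFs) of the 30 members averaging at least 10 normalized counts, with the 95% interval from limma, coloured by role. Filled points passed an adjusted p under 0.05, and these are Traf5, Tnfrsf21 and Tnfrsf1a above 0 and Tnfrsf11b below 0.

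Among the TRAF genes, Traf5 had the lowest adjusted p of all members. The protein binds receptors such as the lymphotoxin β receptor and CD40 and passes their signal to NF-κB (ENSMUSG00000026637, chr1:191997205-192092559, minus strand). It had 213, 115 and 156 normalized counts in Col6a1+ CAFs and 38, 31 and 24 in Col6a1− CAFs. The groups were far apart relative to their spread, with means of 161 ± 49.2 and 31.0 ± 7.00 (SD, n = 3 each). The log2 fold change was 2.32 (SE 0.43, limma adjusted p = 0.0134). Its adjusted p was 0.0725 with the block over all genes and 0.00997 with the block over genes with a mean of at least 10. In the fits without 1 of the libraries, its log2 fold change stayed between 2.1 and 2.54, and the call held without Col6a1+ replicate 1 or 2 (limma adjusted p = 0.0388 and 0.0480) and not in the other 4 such fits. Traf5 holds the pseudogene Gstp-ps on its own strand, which had 643 to 1265 normalized counts in Col6a1+ CAFs and 421 to 1032 in Col6a1− CAFs, so these groups overlapped.

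Traf4, a TRAF found at cell junctions, had 56, 135 and 84 normalized counts in Col6a1+ CAFs and 158, 192 and 254 in Col6a1− CAFs. These did not overlap, and the log2 fold change of -1.19 passed the looser criterion only (limma adjusted p = 0.155). It was -0.88 without Col6a1+ replicate 1. Traf2, the main adaptor of TNFR2, had 1 to 17 normalized counts against 18 to 31, with a log2 fold change of -1.89 (limma adjusted p = 0.380).

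The other TRAF genes overlapped between the groups. Traf3, a brake on non-canonical NF-κB signalling, had 115 to 146 normalized counts against 95 to 159, and its log2 fold change of -0.02 had a 95% interval from -0.81 to 0.77. Traf6, which serves the IL-1 and Toll-like receptors, had 17 to 59 against 41 to 63 (log2 fold change -0.53, interval -1.80 to 0.74). Traf1 had 1 to 25 against 11 to 18, and Traf7 had 206 to 269 against 143 to 531.

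None of the 5 NF-κB subunit genes passed an adjusted p of 0.05, and Nfkb1 passed the looser criterion. Nfkb1 encodes p105, the precursor of p50 (ENSMUSG00000028163, chr3:135584655-135691547, minus strand). It had 234, 171 and 253 normalized counts in Col6a1+ CAFs and 50, 131 and 94 in Col6a1− CAFs. The groups did not overlap, and the log2 fold change was 1.33 (SE 0.42, limma adjusted p = 0.112). The lowest adjusted p over all alternatives was 0.0674, and its log2 fold change stayed between 0.96 and 1.64 in the fits without 1 of the libraries.

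Rela, which encodes the p65 subunit, had 147, 310 and 321 normalized counts against 219, 325 and 296, with a log2 fold change of -0.17 (95% interval -1.0 to 0.66). The ratio of Nfkb1 to Rela counts was 1.59, 0.552 and 0.788 in Col6a1+ CAFs and 0.228, 0.403 and 0.318 in Col6a1− CAFs, without overlap. Nfkb2, the p100 precursor of the non-canonical route, had 128 to 230 against 90 to 138 normalized counts (log2 fold change 0.50, interval -0.33 to 1.33). Relb, its partner, had 69 to 117 against 59 to 136 (log2 fold change 0.02, interval -0.95 to 0.99), and Rel had 11 to 47 against 11 to 30. The direction of Relb turned to -0.03 with library size as the scaling.

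The genes around the family were read from 6 lists with 75 genes in all, of which 72 were tested and Fasl, Cd70 and Cd40lg were at 0 in every library. Of these, 8 rose (11.1%, against the 2.66% of all genes) and 1 fell (1.39%, against 1.96%). The calls lay in the NF-κB target list, where 7 of 21 rose and 1 fell, and in the list of other TNF ligands and receptors, where 1 of 11 tested rose. None of the 10 receptor adaptors, 12 kinases, 6 IκB proteins or 12 brakes was called by limma over all genes without the block. At the looser criterion, 2, 1, 0 and 1 of them were higher (20%, 8.33%, 0% and 8.33%, against 6.09% of all genes). At that criterion 1 brake was lower (8.33%, against 8.61% of all genes). The blocked fit over genes with a mean of at least 10 called 1 brake as higher, Tnfaip3, and 1 as lower, Tnip3. With the block over genes with a mean of at least 10, 13 of 62 pathway genes were higher (21%, against 7.26% of these genes). In that fit 2 were lower (3.23%, against 6.44%), whereas with the block over all genes none passed. In the fits without 1 of the libraries, the number of higher genes ran from 0, without Col6a1− replicate 1, to 6, without Col6a1+ replicate 1, and the number of lower ones from 0 to 1.

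Ngfr, the low-affinity neurotrophin receptor of the TNF receptor family, had 675, 179 and 383 normalized counts in Col6a1+ CAFs and 111, 19 and 24 in Col6a1− CAFs. The groups did not overlap, and the log2 fold change was 3.23 (SE 0.68, limma adjusted p = 0.0237). Without Col6a1+ replicate 1, its highest library, the log2 fold change was 2.78 (limma adjusted p = 0.127). Its limma adjusted p was 0.0612 with the block over all genes and 0.00245 with the block over genes with a mean of at least 10. The highest over the alternatives was 0.216. Cd40, a receptor that signals through TRAF proteins, had 44, 66 and 65 against 6, 12 and 14 (log2 fold change 2.40, limma adjusted p = 0.0574). Cd40 passed the looser criterion and the blocked fit over genes with a mean of at least 10 (limma adjusted p = 0.0376). Ltb had 0, 0 and 1 normalized counts against 4, 14 and 8, and Cd27 had 1, 0 and 0 against 3, 8 and 5. Both are lymphocyte genes and passed the looser criterion (limma adjusted p = 0.121 and 0.177, and 0.0371 for Ltb with limma-voom). They were low where the immune marker sum was low, a sum held mostly by S100a8 and S100a9 in Col6a1− CAFs. The part of immune cells in these values was not tested.

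The 21 NF-κB targets summed to between 14645 and 22355 normalized counts in Col6a1+ CAFs and between 6383 and 7950 in Col6a1− CAFs, and the median log2 fold change of the list was 1.25. Il6, the inflammatory cytokine, had 2525, 811 and 1046 normalized counts against 55, 63 and 23. This was a log2 fold change of 4.87 (SE 0.50, limma adjusted p = 9.53e-04). Cxcl1, a neutrophil chemokine, had 4688, 3905 and 9003 against 642, 1273 and 1243 (log2 fold change 2.45, limma adjusted p = 0.00641). Mmp9, a gelatinase, Ccl2 and Ccl7, monocyte chemokines, Ptgs2, the inducible cyclooxygenase, and Tnfaip2 rose as well, with log2 fold changes of 2.57, 2.42, 1.80, 1.97 and 1.78. The pericyte and fibroblast marker sums were higher in the same libraries, and their part in these values was not tested.

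Of the 21 targets, 17 had a log2 fold change above 0 and 4 had one below 0. Cxcl2 (-0.04), Cxcl5 (-0.41) and Lcn2 (-0.27) were below 0 with groups that overlapped. Il1b was the target called as lower, with 4, 12 and 20 normalized counts in Col6a1+ CAFs and 214, 195 and 196 in Col6a1− CAFs. Its log2 fold change was -4.19 (SE 0.58, limma adjusted p = 0.00336). Il1b is chiefly a myeloid cytokine. Its level was low where the summed immune markers, S100a8 and S100a9 among them, were low, and their part in it was not tested.

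Csf1, Mmp3, Cxcl10 and Il11 were higher at the looser criterion, with log2 fold changes of 1.58, 1.49, 1.28 and 1.02. Csf1, Cxcl10 and Il11 also passed with the block over genes with a mean of at least 10 (limma adjusted p = 0.0423, 0.0335 and 0.0344). In the lists of signalling genes, Map3k3, Ripk3 and Birc3 were higher at that criterion (log2 fold changes of 1.60, 1.55 and 1.09). Among the brakes, Tnfaip3, which encodes the deubiquitinase A20, had 300, 282 and 337 normalized counts against 112, 147 and 156, with a log2 fold change of 1.15 (limma adjusted p = 0.0658). Its groups did not overlap, and it passed over genes with a mean of at least 10 without the block (limma adjusted p = 0.0365) and with it (0.0323). Tnip3 was lower, with 16, 43 and 49 against 65, 150 and 117 (log2 fold change -1.66, limma adjusted p = 0.140, and 0.0409 with the block over genes with a mean of at least 10).

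**Figure D5:**
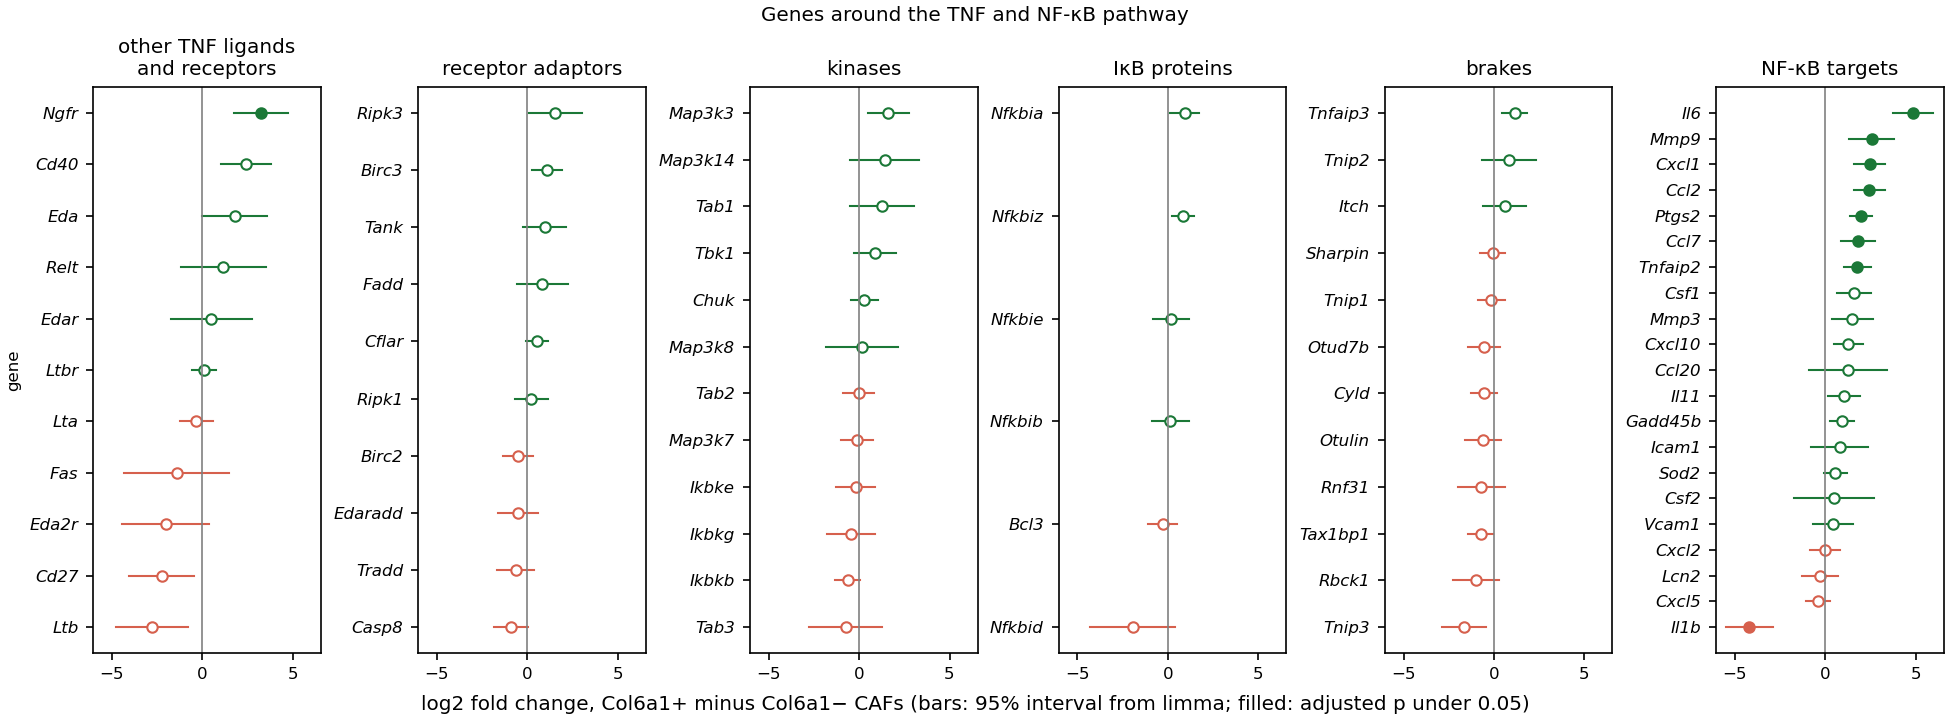
Log2 fold changes (Col6a1+ minus Col6a1− CAFs) of the 72 tested genes of 6 lists around the pathway, with 95% intervals from limma and filled points for an adjusted p under 0.05. Filled points are Ngfr and 7 NF-κB targets above 0 and Il1b below 0, with open points elsewhere.

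NF-κB dimers bind the κB site, a sequence of 10 bases that opens with guanines and closes with cytosines. This κB consensus was searched on both strands in RefSeq promoter windows of GRCm38.p6, from 250 bases before to 50 bases after a gene's start. Windows were matched for 35 of the 44 members, and 6 of these genes held a match (17.1%, against 9.55% of all genes with windows), namely Nfkb2, Rel, Tnfrsf25, Tnfrsf8, Tnfrsf9 and Traf3. Of the 59 pathway genes with windows, 20 held a match (33.9%). These lists include genes chosen as NF-κB targets, so a share above that of all genes was likely from the outset. Tnfrsf1a, Tnfrsf21 and Traf5 had no match in these windows, and Tnfrsf11b had no window. To show what such a match looks like in subunit, receptor and target genes, a site of Nfkb2, Rel and Tnfrsf9 is given with those of the called targets Il6 and Cxcl1, each with the matching bases in capitals and up to 25 bases on either side.

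Nfkb2, chr19:46304673-46304733, plus strand: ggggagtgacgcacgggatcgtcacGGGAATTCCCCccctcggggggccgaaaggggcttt
Rel, chr11:23771026-23771086, minus strand: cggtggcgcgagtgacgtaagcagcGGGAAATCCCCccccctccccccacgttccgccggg
Tnfrsf9, chr4:150927931-150927991, plus strand: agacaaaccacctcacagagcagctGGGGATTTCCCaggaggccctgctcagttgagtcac
Il6, chr5:30013045-30013104, plus strand: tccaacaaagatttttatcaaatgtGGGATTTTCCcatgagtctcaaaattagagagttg
Cxcl1, chr5:90891149-90891209, plus strand: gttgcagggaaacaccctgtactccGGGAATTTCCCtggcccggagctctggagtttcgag

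The match lay from position -39 to -29 relative to the start in Nfkb2, -92 to -82 in Rel and -43 to -33 in Tnfrsf9, and from -44 to -35 in Il6 and -71 to -61 in Cxcl1. Where the capitals run to 11 bases, overlapping matches were joined. Of these 5 genes, the limma test called Il6 and Cxcl1, Tnfrsf9 passed the looser criterion, and Nfkb2 and Rel overlapped between the groups. Cxcl2, not shown, held the same 11 matching bases as Cxcl1 and had a log2 fold change of -0.04. A match describes the letters of a window and not the binding of a factor.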

How the data were processed

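The authors sequenced QuantSeq 3′ mRNA libraries on an Ion Proton instrument, mapped reads to mm10 with TopHat2 and Bowtie2, used GenomicRanges to count them by gene and DESeq, run through metaseqR, to normalize the counts. Their deposited table gives log2(normalized count + 1) per library, and 100% of these values return whole normalized counts. Strand use in counting is not stated in the sources used here, nor are molecular identifiers. The table's p-value, false discovery rate and fold change columns hold the authors' own comparison and were not used, nor were 6 further per-sample columns.

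With limma 3.58.1 in R 4.3.3 (lmFit, eBayes with trend, two-sided, 6.48 prior and 4 residual degrees of freedom), the 2 groups of 3 libraries were compared across 26402 genes whose normalized counts summed to at least 1, with the Benjamini-Hochberg adjustment. Fold changes on this scale understate those of low genes. The members and gene lists were chosen with earlier results of these data known. Every member with a mean of at least 10 was named with values, those past either criterion with every library, and of the pathway lists those past either criterion. The p-values measure the spread between pools of tumors, and the main fit treats the libraries as independent. An exact permutation test of 3 against 3 cannot pass 0.05 and was not used. Tables and plots were made with Python 3.11.15, pandas 2.3.3 and Matplotlib 3.10.9.

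Deviations from the group means over 13515 genes correlated at 0.245, 0.125 and 0.144 between libraries with the same replicate number. Between other libraries they correlated at -0.245 to 0.150. These ranges overlap, so the correlations do not settle whether equal numbers are pairs, and no label states a pairing. The paper's figure legend counts 3 sequenced samples in all, each a pool of tumors. The GFP+ and Tomato+ libraries may thus be fractions of the same pools, but which libraries share a pool is not stated. The numbers, taken from the labels, were therefore used as a block in alternative fits only. Alternatives were library size scaling, at least 10 normalized counts in every library or on average, limma-voom, a pseudocount of 0.1, the replicate block and leaving out each library in turn with the filter applied again. Coordinates are those of the deposited table on mm10, and promoter windows are from RefSeq on GRCm38.p6.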

Additional observations from a re-analysis of the deposited data

How the results depend on the processing

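With the replicate block over all genes, 0 members and 0 pathway genes were called in either direction (14 members had an unadjusted p under 0.05), and with the block over genes with a mean of at least 10, 2 members were lower, 13 pathway genes higher and 2 lower. With a minimum of 10 normalized counts in each library, 2 members were lower, 4 were lower at the looser criterion and 0 pathway genes were lower. A mean of at least 10 left 5 members lower at the looser criterion, limma-voom called 2 members and 2 pathway genes lower, and a pseudocount of 0.1 called 0 members lower. In the filtered fits fewer genes were tested, and for the others the cause was not tested. When 1 library was left out, 0 to 2 members were higher and 0 lower, 5 to 8 were lower at the looser criterion, and 0 to 6 pathway genes were higher and 0 to 1 lower. Over the whole table the fewest genes were called without Col6a1− replicate 1, with 11 higher and 1 lower.

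The log2 fold changes of 64 named genes gave 773 values over the alternatives, of which 29, in 14 genes, changed sign. With library size scaling, Relb came to -0.033 and Traf7 to -0.0045, and with a pseudocount of 0.1 Tnfsf9 came to 0.0029. The other reversals came from leaving out 1 library, over which the log2 fold change ran from -0.41 to 0.59 for Rel, -0.37 to 0.19 for Rela, -0.31 to 0.28 for Relb, -1.0 to 0.028 for Tnfrsf14, -0.38 to 0.12 for Tnfrsf1b, -1.40 to 1.17 for Tnfrsf26, -0.15 to 0.91 for Tnfsf13, -2.26 to 0.012 for Tnfsf13b, -0.19 to 1.71 for Tnfsf4, -1.07 to 0.33 for Tnfsf8, -0.72 to 0.73 for Tnfsf9, -1.44 to 0.41 for Traf1, -0.22 to 0.14 for Traf3 and -0.30 to 0.64 for Traf7. None of these 14 genes was called. Library size scaling moved the median of all genes from -0.27 to -0.31. With 3 libraries a group, and few counts for 14 members with a mean under 10, small differences in these were not detectable.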
